A study of Rattus norvegicus and Mus musculus with 22 samples.

Results

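Unstimulated rat INS-1 cells were compared with unstimulated cultured mouse islets, the primary tissue for which the line often stands in. The comparison used 4 of the 22 RNA-seq libraries of a study of CREB and the transcriptional response to cAMP: INS-1 controls 1 and 2 and islet controls 1 and 2. INS-1 cells are a rat insulinoma line grown in culture, and the islets were primary islets of wild-type mice of the black6 strain. None of the 4 libraries received forskolin, per the labels, and no other agent is named for them there, although the header of the INS-1 table lists control read directories named Con-DMSO and Ins1-Con-NT. The labels do not say whether the libraries of a group came from separate cultures or animals, so the spread between them may be technical. Genes were matched by symbol without regard to case, which paired 14502 genes, 83.2% of the symbols in the INS-1 table and 59.1% of those in the islet table. Of these, 11211 reached 1 CPM (reads scaled to 1000000 per library) in both libraries of at least 1 source, and 9001 reached it in all 4 libraries.

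An islet is a small organ in which insulin-secreting beta cells sit beside glucagon-secreting alpha cells, somatostatin-secreting delta cells and cells making pancreatic polypeptide, with endothelium, stroma and macrophages among them. An insulinoma line keeps the beta cell's secretory machinery and divides, whereas adult beta cells rarely do. Beta cells are also known for keeping a few common genes silent, among them lactate dehydrogenase A and low-Km hexokinase, which are called disallowed genes.

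The tables of the 2 sources were normalised separately and come from 2 species, so only large differences are described and none was tested. Cell source, species, genome annotation, table and preparation cannot be told apart. A gene was called when every library of one source stood at least 8-fold above every library of the other, with levels under 1 CPM raised to 1. That floor is 3.07 reads in the islet libraries and 4.27 reads in INS-1 control 2, while no read total was found for INS-1 control 1. By this rule 1034 genes were higher in INS-1 cells, 9.22% of those at or above the floor, and 690 were higher in islets, 6.15%. On these values replicates lay much closer: the log2 ratio of control 1 to control 2 had an SD of 0.20 in INS-1 cells and 0.21 in islets. The deposited values are read here as regularised, which pulls low genes towards the mean of their table. This SD is therefore not the spread of the raw counts, which was not measured. Among genes at 10 CPM or more in both libraries of a source, 99% differed by less than 1.53-fold between the INS-1 libraries. The same figure was 1.55-fold between the islet libraries, for the genes that reached 10 CPM there.

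**Figure D1:**
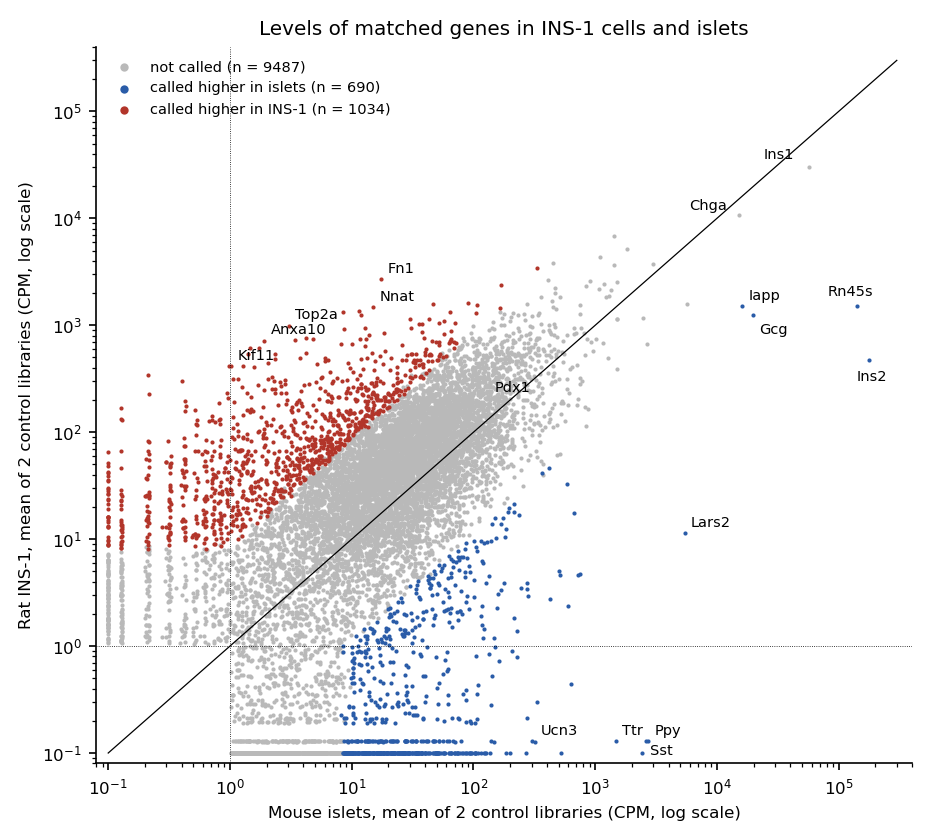
Mean level of each of the 11211 genes in the 2 islet control libraries (x axis, CPM, log scale) against that in the 2 INS-1 control libraries (y axis, CPM, log scale), with levels under 0.1 drawn at 0.1, dotted lines at 1 CPM and a solid line of equality. The 1034 genes called higher in INS-1 cells lie above the line, the 690 called higher in islets below it, and Ins1 and Chga lie near it.

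The middle of the cloud of genes sat above equality, with called genes on both sides. Over the genes present in all 4 libraries the median log2 difference, INS-1 minus islets, was 0.96, and over all genes at the floor in a source it was 0.73. Part of every islet library was taken by a few transcripts. Rn45s, the precursor of ribosomal RNA, held 13.7% and 14.7% of the islet reads and 0.0412% and 0.259% of the INS-1 reads. With Rn45s left out of the totals, the median over genes in all 4 libraries was 0.74, and with 7 hormone genes left out as well it was 0.25. The split of calls moved with the scaling, the floor and the tables used: INS-1 calls were 59.98% of all calls as counted here, 53.3% without Rn45s in the totals, 38.3% without Rn45s and the hormones, 34.6% with the median difference set to 0, 46.5% with no floor, 74.6% with a floor of 5 CPM, 73.9% per kilobase of transcript and 74.0% in the second tables described below. Of the 1724 calls, 1348 kept their call without Rn45s and the hormones, 1238 with the median set to 0, and 1198 per kilobase. Differences well below 8-fold are therefore given mainly as levels, and the size and, for many, the direction depend on the scaling.

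The hormones gave the plainest contrast, and it lay in Ins2 rather than Ins1. Rodents carry a pair of insulin genes with nearly the same protein. Ins1 lies on rat chromosome 1 at 272799784 to 272800349 (rn6, plus strand) and on mouse chromosome 19 at 52264297 to 52265009 (mm10, plus strand). Ins2 lies on rat chromosome 1 at 215856967 to 215858034 (rn6, minus strand) and on mouse chromosome 7 at 142678656 to 142679726 (mm10, minus strand). Their transcripts are alike, and the counting could divide shared reads between them, so their separate levels are uncertain. The bases before each start site in the rat are printed here because Ins1 and Ins2 stood so differently in the line. They come from RefSeq (GRCr8): 250 bases upstream of the start, 5′ to 3′ on the gene's strand. Capitals mark TAAT, the core bound by homeodomain factors such as Pdx1, CANNTG, the E-box bound by factors such as Neurod1, and TGACG, the core of a cAMP response element, each searched on both strands and allowed to overlap.
Ins1, chr1:261185869-261186118, plus strand: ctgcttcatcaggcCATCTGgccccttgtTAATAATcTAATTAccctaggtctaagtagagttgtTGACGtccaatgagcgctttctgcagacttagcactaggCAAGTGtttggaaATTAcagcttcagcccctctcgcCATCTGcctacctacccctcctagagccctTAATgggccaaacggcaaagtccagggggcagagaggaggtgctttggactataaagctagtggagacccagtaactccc
Ins2, chr1:207273806-207274055, minus strand: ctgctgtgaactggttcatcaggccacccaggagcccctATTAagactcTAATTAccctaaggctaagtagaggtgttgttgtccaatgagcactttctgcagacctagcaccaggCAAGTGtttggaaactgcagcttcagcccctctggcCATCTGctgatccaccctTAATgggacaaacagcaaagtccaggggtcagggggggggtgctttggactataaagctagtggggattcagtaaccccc
The Ins1 window held 6 TAAT matches, 3 CANNTG matches and 1 TGACG match, and the Ins2 window held 4, 2 and 0. Among 27457 rat promoter windows of the same length, 56.3% held TAAT, 65.2% held CANNTG and 18.96% held TGACG, so these short letters are common. A match describes the letters only.

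Ins1 stood at 25782 and 34795 CPM in the INS-1 libraries and at 65051 and 49201 CPM in the islet libraries. All 4 values were of the same order, islets higher, and the gene was not called. Ins2 stood at 434 and 509 CPM in INS-1 cells and at 179437 and 177996 CPM in islets, a 380-fold difference (log2 −8.57, SD 0.16 from both pairs of libraries). The sources did not come near overlapping for Ins2. Per length of transcript, the level of Ins2 was 0.0168 and 0.0146 of that of Ins1 in the INS-1 libraries and 2.82 and 3.69 times that of Ins1 in the islet libraries. In the second tables the same ratio was 0.0503 in INS-1 cells and 11.99 in islets. Together the insulin genes took 2.62% and 3.53% of INS-1 reads against 24.4% and 22.7% of islet reads. Over reads other than Rn45s those shares were 2.62% and 3.54% against 28.3% and 26.6%.

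Iapp, which encodes the amyloid peptide that beta cells release with insulin, stood at 1429 and 1604 CPM in INS-1 cells. In islets it stood at 17711 and 14452 CPM, 10.6-fold higher. The listed Iapp transcript has 279 bases in rat and 690 in mouse, and per kilobase the levels were 5435 against 23307 CPM. In the second tables Iapp was 10.4-fold higher in islets. Glucagon transcript was present in the line. Gcg stood at 1009 and 1493 CPM in INS-1 cells and at 18706 and 20567 CPM in islets, a 15.98-fold difference with no overlap. Within INS-1 cells Gcg reached 1198 ± 328 CPM per kilobase (SD, n = 2), about the level of Ins2 there, 1059 ± 118. Gcg differed between INS-1 controls: in the separate control of the inhibitor experiment it was 75.4 FPKM (fragments per kilobase per 1000000), 15.9-fold below the level per kilobase here.

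Sst, Ppy and Pyy were under the floor in the line. Sst, which encodes the delta cell hormone somatostatin, had no read in any library of the INS-1 table and stood at 3265 and 1565 CPM in islets, at least 2261-fold higher. Ppy, which encodes pancreatic polypeptide, was under the floor in both INS-1 libraries and stood at 3284 and 1951 CPM in islets, at least 2531-fold higher. Pyy, which encodes peptide YY, was likewise under the floor in INS-1 cells and stood at 3126 and 2272 CPM in islets, at least 2665-fold higher. These 3 were the largest log2 differences among the matched genes in either direction. In such bulk samples, fewer cells of a type and less RNA per cell cannot be told apart. Of 17 hormone genes at the floor, 8 were called higher in islets (47.1%, against 6.15% of all genes). In INS-1 cells 0 were called higher (against 9.22%), and the median log2 difference was −2.32 against 0.73 over all genes. Vip, the neuropeptide gene, and Ucn3, a maturity marker of mouse beta cells, were the other called members. Cck, which encodes cholecystokinin, was the member that leaned furthest the other way, at 30.7 and 29.1 CPM in INS-1 cells against 3.78 and 3.86 CPM in islets, just short of the call. The 7 main hormone genes held 2.87% and 3.84% of INS-1 reads and 29.1% and 26.8% of islet reads.

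**Figure D2:**
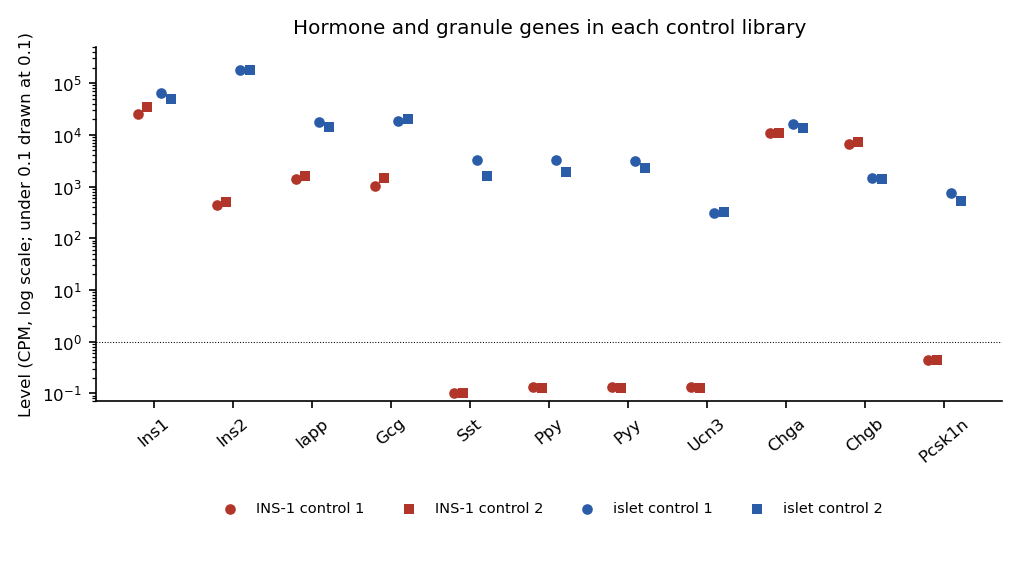
Level (CPM, log scale, under 0.1 drawn at 0.1) of hormone and granule genes in each of the 4 control libraries, red for INS-1 and blue for islets, circles for control 1 and squares for control 2, with the 1 CPM floor dotted. Ins1, Chga and Chgb are high in both sources, Ins2 is at 434 and 509 in INS-1 against 179437 and 177996 in islets, and Sst, Ppy, Pyy, Ucn3 and Pcsk1n are under the floor in INS-1 cells.

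Transcription factors that define a beta cell were present in both sources. Of 20 identity genes at the floor, 0 were called higher in INS-1 cells (against 9.22% of all genes) and 2 in islets (10%, against 6.15%). Their median difference was 0.06, below the 0.73 over all genes. Pdx1, the homeodomain factor of pancreas and beta cells, stood at 223 and 191 CPM in INS-1 cells and 142 and 122 in islets. Nkx6-1, another homeodomain factor of beta cells, stood at 78.8 and 60.9 against 162 and 139. Neurod1, a basic helix-loop-helix activator of insulin transcription, stood at 147 and 163 against 203 and 238. For each of these 3 genes the 2 sources did not overlap but differed by at most 2.17-fold, and with the median set to 0, or without Rn45s and the hormones in the totals, Pdx1 was lower in INS-1 cells, while in the second tables Neurod1 was higher. Pax6, needed for hormone expression, was at 427 and 500 CPM against 388 and 406 and changed direction with the median set to 0 and with Rn45s, alone or with the hormones, left out of the totals. Slc2a2, the GLUT2 glucose transporter, was 3.82-fold higher in the line, at 1587 and 1765 CPM against 395 and 487, and was not called. In the second tables Slc2a2 was 1.68-fold higher in the line. Mafa, Insm1, Glis3, Ero1b and G6pc2 had no matched symbol and are not described.

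The exceptions among identity genes were a marker of maturity and an ion channel. Ucn3, encoding urocortin 3, was under the floor in INS-1 cells and stood at 311 and 328 CPM in islets, at least 319-fold higher. In the separate tables Ucn3 was listed at 0 FPKM in INS-1 cells and at 300 FPKM in islets. Trpm5, a cation channel activated by calcium, stood at 5.15 and 5.69 CPM against 54.5 and 54.9, a 10.1-fold difference.

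Of 38 granule and exocytosis genes, 2 were called higher in INS-1 cells and 2 in islets, 5.26% each way against 9.22% and 6.15% of all genes, with a median of 0.08. Chga, the chromogranin A gene, was second only to Ins1 in the INS-1 libraries at 10742 and 10959 CPM and stood at 16404 and 13734 CPM in islets. Chgb, chromogranin B, was 4.81-fold higher in the line and 2.99-fold higher there in the second tables, and was not called. Of the prohormone convertases, Pcsk1 was at 585 and 559 CPM against 535 and 462, an order that turned under every rescaling but that over matched genes, and Pcsk2 at 1419 and 1774 against 6228 and 5201. Pcsk1 also differed between INS-1 controls: it was 114 CPM per kilobase in the 2 INS-1 libraries here and 8.57 FPKM in the inhibitor experiment's control, 13.3-fold lower, and in the second tables islets stood 22.2-fold higher. Pcsk1n, the proSAAS inhibitor of that convertase, was under the floor in INS-1 cells at 0.444 and 0.437 CPM and stood at 750 and 519 CPM in islets, at least 624-fold higher. Rab27a, a small GTPase of granule docking, was 17.4-fold higher in islets at 175 and 188 CPM. Cplx1, a complexin that clamps SNARE fusion, was called the other way at 53.8 and 46.3 CPM in INS-1 cells against 2.67 and 2.14, as was Nnat, described with the imprinted genes. Without INS-1 control 1, or without islet control 2, 3 granule genes were called higher in islets.

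Nutrient sensing differed gene by gene. Of 34 genes of glucose sensing and the KATP channel, 4 were called higher in INS-1 cells (11.8%, against 9.22% of all genes). In islets 1 was called higher (2.94%, against 6.15%), and the median was 0.76. Pklr, a pyruvate kinase, stood at 337 and 255 CPM in the line against 15.2 and 16.6, while Pkm, the other pyruvate kinase gene, leaned to islets at 983 and 760 CPM against 171 and 156 in the line and was not called. Me1, cytosolic malic enzyme, was 17.2-fold higher in the line, and Mpc1, a subunit of the mitochondrial pyruvate carrier, 15.96-fold higher. The remaining called members were Adcyap1r1, described with the cAMP receptors, and on the islet side Slc25a22, a mitochondrial glutamate carrier. The channel genes stayed under the 8-fold rule: Kcnj11, the pore subunit, was at 365 and 264 CPM against 88.4 and 91.1, and Abcc8, the sulfonylurea receptor, at 484.5 and 501 against 1280 and 1272.

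The receptors that couple to cAMP did not move together. Adcyap1r1, the PACAP receptor, was 42.8-fold higher in INS-1 cells, at 117 and 105 CPM against 2.62 and 2.55. Glp1r, the receptor of glucagon-like peptide 1, leaned to islets at 449 ± 51.4 CPM (SD, n = 2) against 112 ± 17.9, a 4.01-fold difference that was 15.02-fold in the second tables, at 410 against 27.3 FPKM, and stood at 306 against 36.8 CPM per kilobase, and Gipr, the receptor of the other incretin, was at 81.5 and 74.8 CPM in islets against 123 and 133, a direction that turned with the median set to 0 and without Rn45s and the hormones. Of 37 cAMP pathway genes, 1 was called higher in INS-1 cells (2.70%, against 9.22% of all genes) and 2 in islets (5.41%, against 6.15%). Their median was 0.70. Adcy1, an adenylyl cyclase stimulated by calcium, was 16.5-fold higher in the line. Prkacb, a catalytic subunit of protein kinase A, was 8.67-fold higher in islets. Per kilobase Prkacb was at 84.2 CPM in islets against 37.7 in INS-1 cells, and in the second tables it was 5.69-fold higher in islets. Rgs4, a brake on Gq and Gi signalling, had no read in any library of the INS-1 table and stood at 105 and 150 CPM in islets. Without INS-1 control 1, and likewise without islet control 1, 2 of the 37 were called higher in INS-1 cells. Immediate-early genes, many of which cAMP induces, gave 1 call among 28, higher in INS-1 cells (3.57%, against 9.22% of all genes). The call was Arc, at 10.1-fold, and the median of the list was 0.10. Nr4a1, an orphan nuclear receptor, stood at 81.6 and 72.5 CPM in INS-1 controls and 23.5 and 19.8 in islet controls. The corresponding forskolin libraries held 397 and 535 CPM in INS-1 cells and 132 and 197 in islets, above the controls of the same table in each case.

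The cell cycle list had the highest median of the 29 lists. Of 47 cell cycle genes at the floor, 40 were called higher in INS-1 cells (85.1%, against 9.22% of all genes). In islets 1 was called higher (2.13%, against 6.15%), and the median log2 difference was 5.41 against 0.73 over all genes. With the median set to 0 the INS-1 count was 33. It was 36 with Rn45s and the hormones left out of the totals, and 37 in the second tables. The mitotic regulators stood furthest apart. Kif11, the kinesin that pushes spindle poles apart, was at 413 and 419 CPM in INS-1 cells and at 1.01 and 1.03 CPM in islets, 408-fold lower there. Top2a, the topoisomerase that untangles replicated DNA, was at 951 and 1036 CPM against 2.86 and 3.23, a 327-fold difference. Mki67, the Ki-67 proliferation marker, was at 521 and 586 CPM against 3.88 and 4.53, a 132-fold difference. Ccnb1, cyclin B1, was at 358 and 332 CPM in the line and under the floor in islets, at least 344-fold higher in the line, and its kinase Cdk1 was at 326 and 303 CPM against 1.15 and 1.18. All INS-1 libraries stood far above all islet libraries for these 5 genes.

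The replication genes Pcna and Mcm2 differed by smaller folds than these mitotic genes. Pcna, the polymerase clamp, was at 560 and 516 CPM in the line against 37.8 and 30.0 in islets, and Mcm2 of the replicative helicase at 225 and 189 against 16.1 and 12.8. Myc, a driver of growth, was 10.6-fold higher in INS-1 cells. Ccnd1 and Ccnd2, D-type cyclins that respond to growth signals, were lower in the line. Ccnd1 stood at 10.2 and 10.1 CPM in INS-1 cells and at 163 and 145 in islets, called 15.1-fold higher in islets, and Ccnd2 at 158 and 183 against 828 and 812, not called. Of 13 inhibitors and tumour suppressors, only Ccng1 was called (7.69%, against 9.22% of all genes), 8.72-fold higher in the line, and the median was 1.11. Cdkn1a, the p21 inhibitor, was at 48.1 and 38.7 CPM in INS-1 cells and 71.2 and 54.8 in islets. Ccng1 was under the 8-fold rule with Rn45s left out of the totals.

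**Figure D3:**
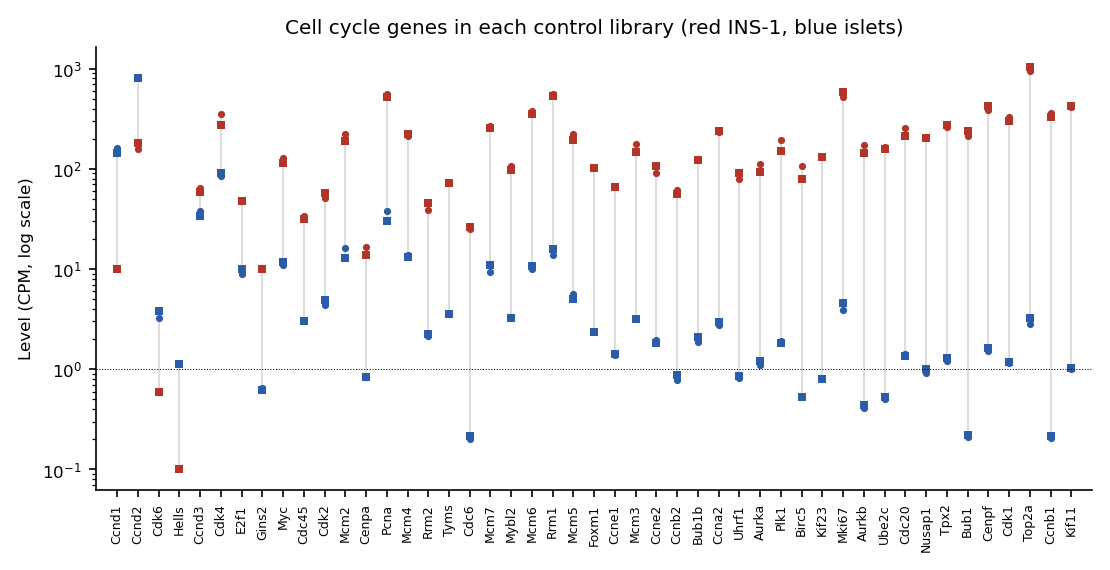
Level (CPM, log scale, under 0.1 drawn at 0.1) of 47 cell cycle genes in each control library, red for INS-1 and blue for islets, circles for control 1 and squares for control 2, ordered by the difference and joined by a grey line, with the 1 CPM floor dotted. Every gene from Ccnd3 rightwards is higher in INS-1 cells, while Ccnd1, Ccnd2, Cdk6 and Hells at the left are higher in islets.

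The promoters of called cell cycle genes were also read for letters that the rule did not use. Ccnb1 and Cdk1 are printed as members from the far end of the list, with capitals for CCAAT, the letters bound by NF-Y, and TTTGAA, the core of the cell cycle homology region, on both strands, again 250 bases upstream of the RefSeq start in GRCr8.
Ccnb1, chr2:33655226-33655475, minus strand: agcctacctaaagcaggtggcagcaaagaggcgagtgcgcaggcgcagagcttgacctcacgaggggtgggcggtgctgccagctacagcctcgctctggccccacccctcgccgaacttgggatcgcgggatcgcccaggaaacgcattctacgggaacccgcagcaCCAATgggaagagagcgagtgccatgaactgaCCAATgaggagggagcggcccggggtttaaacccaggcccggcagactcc
Cdk1, chr20:19265043-19265292, plus strand: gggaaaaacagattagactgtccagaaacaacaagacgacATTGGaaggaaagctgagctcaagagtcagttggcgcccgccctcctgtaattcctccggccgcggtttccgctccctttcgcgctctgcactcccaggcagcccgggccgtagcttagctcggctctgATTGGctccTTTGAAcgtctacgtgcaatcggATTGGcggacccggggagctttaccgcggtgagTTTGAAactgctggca
Of the 40 called cell cycle genes, 30 had a rat promoter in the RefSeq table. CCAAT was found in 23 of these 30, against 34.3% of all 27457 windows, more than 1 CCAAT in 14 of 30 against 9.77%, and TTTGAA in 9 of 30 against 16.03%. Ccnb1 held 2 CCAAT matches and Cdk1 held 3 with 2 TTTGAA matches. These are counts of letters in a fixed window. Cell cycle genes that were not called were not counted beside them. The counts therefore describe genes picked for a cell cycle list and do not bear on the difference between INS-1 cells and islets.

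Many of these differences recurred in another pair of rat and mouse samples. AR42J, a rat line from a pancreatic tumour with acinar features, was set against mouse hepatocytes. The FPKM of 1 AR42J library carrying GFP was compared with the mean CPM per kilobase of the 2 hepatocyte controls. Levels under 1 were raised to 1, and 8-fold between the 2 values was enough. This measure, floor and rule differ from those of the main calls. Of the 40 called cell cycle genes, 28 were also at least 8-fold higher in AR42J cells than in hepatocytes. That second pair compares another rat line with other primary mouse cells, and so it counts how often a difference between INS-1 cells and islets recurs when the cells are others and the species are the same. Over 10630 genes with values, 9.18% were at least 8-fold higher in AR42J cells than in hepatocytes and 6.53% lower. Among genes called higher in INS-1 cells the first share was 29.8%, 295 of 991. Among genes called higher in islets the second share was 28.2%, 186 of 659. The opposite difference was found in 2.12% and 7.13% of them. Without the genes that differed the same way in both pairs, 739 calls remained for INS-1 cells and 504 for islets. Of the hepatocyte libraries, the one labelled control 2 held 82.3 CPM of Nr4a1 against 19.7 in the one labelled forskolin 2, the reverse of the order within the first replicate, so its treatment label is uncertain.

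**Figure D4:**
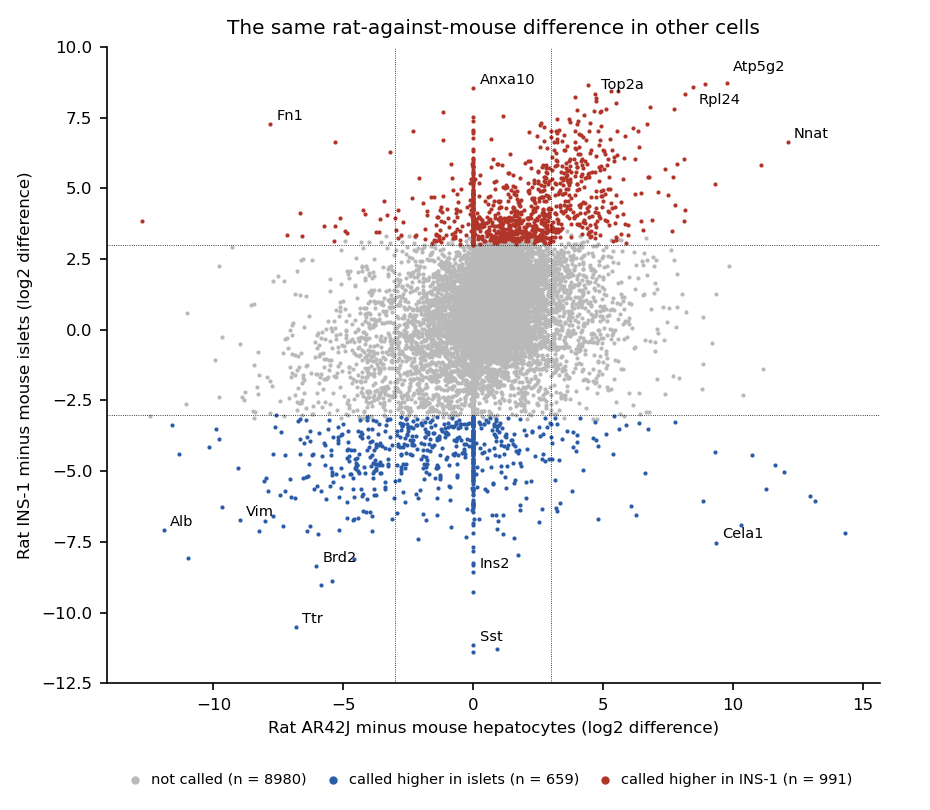
Log2 difference of rat AR42J cells minus mouse hepatocytes (x axis, FPKM against CPM per kilobase) against rat INS-1 cells minus mouse islets (y axis, CPM), with levels under 1 set to 1 and dotted lines at 8-fold. Red and blue points are the 991 and 659 called genes with values in both pairs. Top2a, Rpl24 and Atp5g2 at the upper right, and Alb, Vim and Brd2 at the lower left, differed the same way in both pairs, whereas Ins2, Sst and Anxa10 passed 8-fold in the first pair only.

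Several of the most extreme genes recurred in this way and were near 0 in every rat or every mouse source. Brd2, a BET bromodomain protein, was under the floor in INS-1 cells, at 0.0772 FPKM in AR42J cells, at 333 and 328 CPM in islets and at 65.6 CPM per kilobase in hepatocytes. Tpi1, Rbm39, Vim, Tap2 and Slc25a22 followed the same pattern. Tpi1 encodes triose phosphate isomerase, an enzyme on which glycolysis depends in every cell. In the other direction, Atp5g2, a subunit of ATP synthase, was at 658 and 578 CPM in INS-1 cells and 1112 FPKM in AR42J cells, but at 1.51 and 1.43 CPM in islets and 1.29 CPM per kilobase in hepatocytes. The housekeeping genes Gapdh and Ppia were also low in both mouse sources, at 9.49 and 10.0 CPM for Gapdh in islets and 0.815 and 0.882 CPM for Ppia. The levels of Gapdh and Ppia are uncertain, because both have near-identical copies in the genome. Whether that bears on these differences was not tested.

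The levels of ribosomal protein genes, which also have near-identical copies, are uncertain in the same way. Of 77 at the floor, 31 were called higher in INS-1 cells and 6 in islets, against 9.22% and 6.15% of all genes. Their median was 2.50, and 21 of the 31 recurred between AR42J cells and hepatocytes. Rpl24 stood at 570 and 513 CPM in the line and at 1.40 and 1.44 in islets. Of 15 housekeeping genes, 6 were called higher in INS-1 cells (40%, against 9.22% of all genes) and none in islets (against 6.15%). With the median set to 0 the INS-1 count was 2. Ywhaz, Rplp0 and Tubb5 were among the 6, at 8.78-, 10.3- and 14.2-fold. Lars2, the mitochondrial leucyl-tRNA synthetase, was the reverse, at 11.2 and 11.6 CPM in the line and 4854 and 5980 CPM in islets, and at 483 CPM per kilobase in hepatocytes against 11.1 FPKM in AR42J cells.

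Some of the genes highest in the line did not recur. Anxa10, an annexin of gastric epithelium, was at 676 and 763 CPM in INS-1 cells and 1.93 and 1.91 in islets, a 374-fold difference, and was listed at 0 in AR42J cells. Fn1, fibronectin, was at 2203 and 3203 CPM against 15.7 and 19.03, a 154-fold difference, and was listed at 0 in AR42J cells but at 227 CPM per kilobase in hepatocytes, the opposite order. Thy1, a surface glycoprotein used as a stromal marker, was 67.0-fold higher in the line and listed at 0 in AR42J cells. Tff3, a trefoil peptide of mucous epithelia, was at 474 and 361 CPM and under the floor in islets, and it did recur, at 484.8 FPKM in AR42J cells and listed at 0 in hepatocytes.

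Of 17 alpha cell markers at the floor, 3 were called higher in INS-1 cells (17.6%, against 9.22% of all genes). In islets 8 were called higher (47.1%, against 6.15%), and the median was −1.84. These counts were 3 and 4 per kilobase, and 2 and 3 in the second tables. The regulators Irx1 and Irx2 had no read in any library of the INS-1 table and stood at 13.1 to 15.96 and 22.5 to 28.2 CPM in islets. Ttr, transthyretin, was under the floor in INS-1 cells and stood at 1410 and 1540 CPM in islets, at least 1474-fold higher. The 3 genes on the other side were Gc, the vitamin D binding protein, at 1350 and 1741 CPM in INS-1 cells against 93.5 and 120 in islets, Etv1, an ETS factor, at 722 and 1022 against 36.4 and 38.8, and Higd1a, a mitochondrial protein, which was 32.3-fold higher. Gcg and Gc transcripts were thus found in INS-1 cells, while Irx1 and Irx2 were not detected at this depth.

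Of 9 delta cell markers at the floor, 6 were called higher in islets (66.7%, against 6.15% of all genes). The count was 3 both per kilobase and in the second tables. Among the 6 was Hhex, a delta cell regulator, which was under the floor in INS-1 cells and at 10.3 and 9.26 CPM in islets. Ptprz1, a receptor phosphatase, was the 1 called the other way (11.1%, against 9.22%), 27.1-fold higher in the line. Of 8 markers of PP and epsilon cells, 3 were called higher in islets (37.5%, against 6.15% of all genes). In INS-1 cells 2 were called higher (25%, against 9.22%), Etv1 and Id4. Id4, an inhibitor of differentiation, was at 175 and 189 CPM against 2.91 and 2.89.

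Islet preparations also held transcripts of exocrine, vascular and immune cells. Of 24 acinar markers at the floor, 15 were called higher in islets (62.5%, against 6.15% of all genes). In INS-1 cells 0 were called higher (against 9.22%), and the median was −4.83. Ctrb1, a chymotrypsinogen, stood at 4.64 and 4.58 CPM in INS-1 cells and at 466 and 984 CPM in islet controls 1 and 2. Cela1, an elastase, had no read in any library of the INS-1 table and stood at 124 and 274 CPM. Both enzymes were higher in islet control 2 than in islet control 1. Summed over 30 matched acinar markers the level was 93.0 and 131 CPM in INS-1 cells and 1251 and 2591 CPM in islets. Without islet control 1 the called number was 18. The part that exocrine carry-over has in the islet values of other genes was not tested.

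Endothelial markers gave 12 of 21 called higher in islets (57.1%, against 6.15% of all genes) and 0 in INS-1 cells (against 9.22%). The islet count was 6 per kilobase and 8 in the second tables. Cdh5, the cadherin of vessel junctions, had no read in any library of the INS-1 table and stood at 81.2 and 88.6 CPM in islets, and Pecam1 was at least 49.8-fold higher there. Summed levels were 97.2 and 93.1 CPM against 606 and 627 CPM. Macrophage and leukocyte markers gave 8 of 17 called higher in islets (47.1%, against 6.15%) and 0 in INS-1 cells (against 9.22%). Among the 8 was Cd74, an invariant chain of antigen presentation, at 52.3 and 59.6 CPM. This list summed to 6.96 and 6.03 CPM in INS-1 cells against 231 and 230 in islets. Of 21 markers of fibroblasts and pericytes, 9 were called higher in islets (42.9%, against 6.15%), with 3 per kilobase and 5 in the second tables. Among the 9 was Sparc, at 98.4 and 84.6 CPM against no read in the INS-1 table. The collagens Col1a1 and Col3a1 were at 22.7 and 24.4 CPM and at 16.2 and 16.1 CPM. Fn1 and Thy1, above, were the 2 called the other way (9.52%, against 9.22%). The fibroblast list thus summed higher in the line, at 2383 and 3462 CPM against 447 and 422.

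Duct markers gave 4 of 16 called higher in islets (25%, against 6.15% of all genes) and 1 in INS-1 cells (6.25%, against 9.22%). Spp1, osteopontin, had no read in the INS-1 table and stood at 287 and 251 CPM in islets. Krt8, an epithelial keratin, leaned to INS-1 cells at 1388 and 1144 CPM against 180 and 178 and was not called. Hepatocyte markers were called higher in islets for 7 of 19 genes (36.8%, against 6.15%) and higher in INS-1 cells for 0 (against 9.22%). All 7 also stood at least 8-fold higher in hepatocytes than in AR42J cells. Their choice as hepatocyte markers fixed that outcome, so it says nothing about the islet difference. Alb, serum albumin, was at 183 CPM in islet control 1 and 99.5 CPM in islet control 2, and under the floor in INS-1 cells. Without islet control 2, 13 of the 19 were called.

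**Figure D5:**
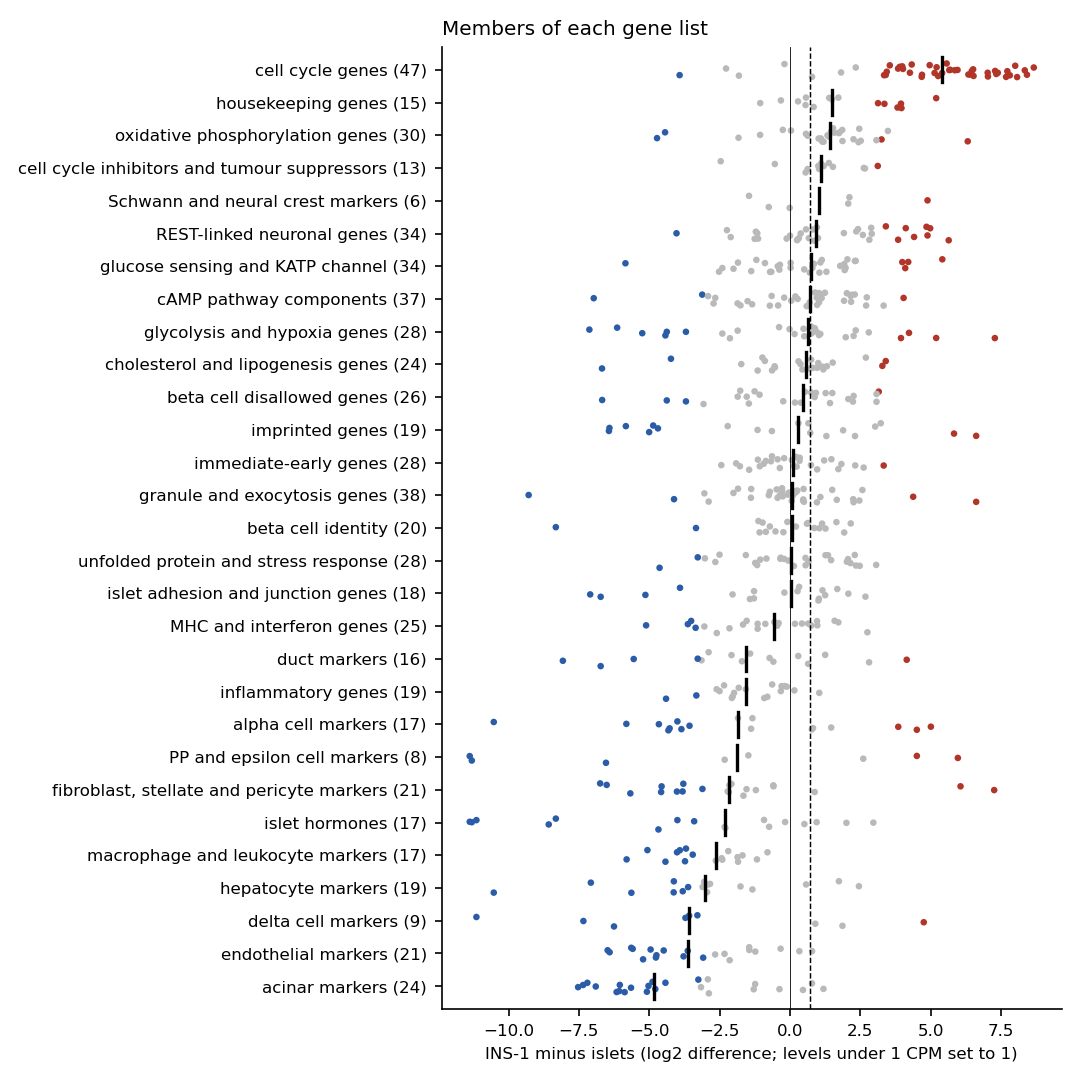
Log2 difference (x axis, INS-1 minus islets, levels under 1 CPM set to 1) of the members at the floor in each of 29 gene lists (y axis, number of members in brackets), red for genes called higher in INS-1 cells, blue for islets and grey for neither. Black bars are list medians, and the dashed line is the median of all genes, 0.73. Cell cycle genes stand to the right at 5.41 and acinar, endothelial and delta cell markers to the left.

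Of 26 disallowed genes at the floor, 1 was called higher in INS-1 cells (3.85%, against 9.22% of all genes) and 3 in islets (11.5%, against 6.15%), with a median of 0.47. Ldha, lactate dehydrogenase A, had no read in any library of the INS-1 table and stood at 22.9 and 18.79 CPM in islets. Hk1, a low-Km hexokinase, had no read in the INS-1 table either and stood at 13.7 and 12.3 CPM in islets. Both were also listed at 0 in the INS-1 control of the inhibitor experiment, while AR42J cells held 63.1 FPKM of Ldha and 54.1 FPKM of Hk1 in the table counted for that line. Cd44, a hyaluronan receptor, was the third, at 91.2 and 114 CPM in islets against no read. Igfbp4 alone was called higher in the line, at 57.6 and 51.5 CPM against 6.05 and 6.14. Slc16a1, the monocarboxylate transporter of the same list, was at 11.4 and 10.7 CPM in INS-1 cells and at 2.16 and 2.43 in islets, not called. Without INS-1 control 1, and likewise without islet control 1, 2 disallowed genes were called higher in the line.

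Other glycolytic and hypoxia genes went both ways, 4 of 28 higher in INS-1 cells (14.3%, against 9.22% of all genes) and 6 in islets (21.4%, against 6.15%). Pgam1, phosphoglycerate mutase, was 156-fold higher in the line and Tpi1 at least 140-fold higher in islets, and both recurred between AR42J cells and hepatocytes. Pdk4, a kinase that shuts pyruvate dehydrogenase, had no read in the INS-1 table and stood at 38.8 and 37.1 CPM in islets. Of 30 genes of oxidative phosphorylation, 2 were called each way (6.67%, against 9.22% and 6.15% of all genes). Their median of 1.42 was above that of all genes. Ndufa4, a respiratory chain subunit, was 9.58-fold higher in the line. Per kilobase it was at 613 against 103 CPM, and in the second tables it was 2.64-fold higher in the line. Without INS-1 control 2, 4 of the 30 were called higher in INS-1 cells. Ndufa1, a subunit of complex I, had no read in the INS-1 table and 28.7 and 24.2 CPM in islets, but 536 FPKM in the separate INS-1 control. Cox6a2, the other islet call, had no read there either and 24.4 and 19.2 CPM in islets, but 37.7 FPKM in that control.

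Of 34 genes linked to the repressor REST, 8 were called higher in INS-1 cells (23.5%, against 9.22% of all genes). In islets 1 was called higher (2.94%, against 6.15%), and the median was 0.91. Uchl1, a ubiquitin hydrolase of neurons and endocrine cells, stood at 1108 and 949 CPM against 36.2 and 34.5. Neurod2, a relative of Neurod1, was at 56.4 and 44.5 CPM in INS-1 cells and under the floor in islets, at least 50.1-fold higher in the line. Gap43, a growth cone protein, was at 92.0 and 87.0 CPM against 3.18 and 2.84. Srrm4, a splicing factor of neural microexons, had no read in the INS-1 table and stood at 16.8 and 15.8 CPM in islets. Of the 8, 4 recurred between AR42J cells and hepatocytes.

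Among 19 imprinted genes, 2 were called higher in INS-1 cells (10.5%, against 9.22% of all genes) and 6 in islets (31.6%, against 6.15%). Nnat, neuronatin, was at 1488 and 1458 CPM in the line and 14.1 and 15.8 in islets, a 98.5-fold difference, and Igf2, a fetal growth factor, was at 651 and 969 CPM against 13.9 in both islet libraries. Both were also high in AR42J cells, at 4377 and 2131 FPKM. Ndn, Dlk1, Plagl1, Rasgrf1, Zim1 and Grb10 were the 6 on the other side. Ndn and Dlk1 had no read in the INS-1 table and stood at 65.9 and 49.1 CPM and at 25.9 and 25.7 CPM in islets. Without INS-1 control 1, 4 imprinted genes were called higher in the line.

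Of 28 genes of the unfolded protein and stress response, 2 were called higher in islets, Chac1 and Phgdh (7.14%, against 6.15% of all genes). None was called higher in INS-1 cells (against 9.22%), and the median was 0.05. Hspa5, the chaperone BiP, differed between the INS-1 libraries themselves, at 2394 and 4917 CPM, against 1480 and 1374 in islets. Hsp90b1, the chaperone GRP94, was at 3184 and 4434 CPM against 466 and 430 and would have been called without INS-1 control 1. Of 24 cholesterol and lipogenesis genes, 2 were called each way (8.33%, against 9.22% and 6.15% of all genes). Acaca and Idi1 were higher in the line. Among those higher in islets was Elovl6, a fatty acid elongase under the floor in INS-1 cells and at 16.2 and 21.6 CPM in islets. Of 25 antigen presentation and interferon response genes, 4 were called higher in islets (16%, against 6.15%) and 0 in INS-1 cells (against 9.22%). The 4 were Tap2, Oasl2, Usp18 and Ifitm3. Of 19 inflammatory genes, 2 were called higher in islets (10.5%, against 6.15%) and 0 in INS-1 cells (against 9.22%). The 2 were complement C3 and Socs3. The latter, an inhibitor of cytokine signalling, was at 5.75 and 5.73 CPM in INS-1 cells against 58.8 and 56.1. Per kilobase Socs3 was at 6.67 against 21.1 CPM, and in the second tables it was 3.05-fold higher in islets. Of 6 Schwann cell and neural crest markers, only Gap43, named above, was called, higher in INS-1 cells (16.7%, against 9.22%). Per kilobase and in the second tables, the genes called higher in islets numbered 2 and 2 for antigen presentation, 0 and 1 for the inflammatory list, 4 and 3 for glycolysis, 6 and 4 for hepatocyte markers and 4 and 7 for duct markers. Of 18 adhesion and junction genes, 4 were called higher in islets (22.2%, against 6.15%) and 0 in INS-1 cells (against 9.22%). The 4 were Gja1, Cldn3, Cldn4 and Col4a1, the last at 140 and 134 CPM against no read.

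A like comparison could be made in other tables, on FPKM raised to at least 1 and with 1 library a source. These were the INS-1 control of the inhibitor experiment and the wild-type control column of the CRTC2 knockout islet table. Across 6374 genes the latter column lay as close to islet control 2, with a median absolute deviation of the log2 ratio of 0.149, as the islet controls lay to each other, 0.150, against 0.261 to islet control 1. It has no sample of its own in the labels, so it is not an independent islet sample. Of 10583 genes with values there, 12.1% were at least 8-fold higher in INS-1 cells and 4.27% in islets. Of the genes called higher in INS-1 cells, 727 of 985 with values (73.8%) differed at least 8-fold the same way, and 56.6% of the second tables' calls had been called. Of those called higher in islets, 363 of 658 (55.2%) did, and 80.3% of the second tables' calls had been called. Opposite signs were found for 2 and 21 genes. Between the INS-1 controls themselves, 1.34% of 9058 genes were at least 8-fold apart, Gcg, Pcsk1, Rps13, Ndufa1 and Cox6a2 among the genes named. Rps13, a ribosomal protein gene, was at 529 and 445 CPM in the 2 libraries here and listed at 0 in the second table. Of 23 genes under the floor in the INS-1 libraries but over 10 FPKM in the second INS-1 control, 16 had been called higher in islets, and for these the call rests on 1 of 2 tables.

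The genes nearest to the 8-fold rule show where it fell. Triqk, Tpmt and Umps were the last called higher in INS-1 cells, at log2 differences of 3.004, 3.03 and 3.07, and Atp2c2 at 3.07 was the first outside. Hira at −3.16 was the last called higher in islets, and Slc25a35 at −3.14 the first outside. The called genes made up 17.1% and 16.2% of INS-1 reads on the one side and 40.4% and 41.1% of islet reads on the other, Rn45s and the hormones included. The median level in the higher source was 69.7 CPM for genes called higher in INS-1 cells and 27.3 CPM for those called higher in islets. The other source was under the floor in both libraries for 293 of the 1034 and for 501 of the 690, so most islet differences are lower bounds.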

How the data were processed

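RNA was prepared with Trizol and columns and made into directional libraries, per the labels. Reads were counted on the plus strand over RefSeq exons of rn6 or mm10 with HOMER, 1 transcript kept per gene, per the file headers. The submitters' processing notes name TopHat2 2.0.9, STAR, HOMER and DESeq2, with no role for each. The deposited values of the repeat tables, made by the authors, are log2 expression, read here as regularised, which pulls low genes towards the mean of their table, forskolin libraries included. The authors' deposited log2 fold changes, p-values and adjusted p-values for forskolin were not used. The unreplicated tables (second INS-1 and islet controls, AR42J) hold deposited values read here as FPKM, since low values scaled by transcript length fall on whole multiples of a constant.

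Here 2 was raised to each value, genes with no read in any library of a table were set to 0, and each library was rescaled to 1000000, giving approximate CPM. The deposited transcript length served for levels per kilobase. Since 1 CPM is 3.07 reads in each islet control and 4.27 in INS-1 control 2, low levels rest on few reads. A repeated symbol kept its highest entry. The call, floor and 29 lists are described with the results. Named genes were the 25 largest calls each way, up to 8 members a list, and genes always named; Rn45s, Cck, Gc, Myc, Pcna, Mcm2, Ccnd1, Ccnd2, Ccnd3, Cdk6, Hells and the genes nearest the 8-fold rule fall outside this and were chosen after their values were seen. Members and lists were chosen with earlier results of these data known. The calling step was run on simulated Poisson counts drawn from islet levels, with the median difference set to 0. That scaling is not the one used for the calls, and the simulated counts were not regularised. The simulation therefore does not show how often the calls reported here are right. No test was made, since the sources sit in separately normalised tables. Alternatives changed the fold, floor, scaling and libraries. Promoters are those of RefSeq, GRCr8. Python 3.11.15, pandas 2.3.3, numpy 2.4.6 and matplotlib 3.10.9 were used. Results for some genes are not reported here.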

Additional observations from a re-analysis of the deposited data

How the results depend on the processing

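Genes called higher in INS-1 cells numbered 1034, and 2274 at 4-fold, 478 at 16-fold, 682 with a floor of 5 CPM, 548 with the median difference set to 0 and 661 with Rn45s and 7 hormone genes left out of the totals. Genes called higher in islets numbered 690, and 1225, 383 and 232 at the first 3 of these settings, 1482 with no floor, 395 per kilobase, 452 in the second tables and 1067 without Rn45s and the hormones. Leaving out each library in turn gave 1073 to 1129 and 694 to 732. A call needed every library, so leaving 1 out could add calls but not remove any. The same holds for the list counts given above without 1 library. The Rn45s and AR42J settings were chosen after seeing the data. No called gene among those named by rule turned direction except Ndufa1 (log2 −4.72), which was 2.51 in the second tables. Rps13 (log2 7.70) was 0 in the second tables. The cause was not tested in either case. Called genes named outside the rule, such as Gc, Myc, Ccnd1 and Hira, were not followed across the settings. No paired analysis was possible because no test was made and the sources share only replicate numbers. With 2 libraries a source, levels near 1 CPM rest on 3.07 reads in islets and 4.27 in INS-1 control 2.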
